A study of Homo sapiens with 2 samples.

Results

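The genes described here are 10 RNA-binding proteins that steer alternative splicing in neurons: RBFOX1, RBFOX2, RBFOX3, NOVA1, NOVA2, ELAVL2, ELAVL3, ELAVL4, CELF4 and PTBP2. They were chosen by name as members of the best-known neuronal splicing families, but with earlier results of these data known. All 10 were found once among the 61487 features of both libraries. Their raw counts, pooled levels and detection were read in FEV-positive neurons and set against barcodes that express cell cycle genes.

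Alternative splicing joins different sets of exons from the same gene, and neurons use it more than most tissues to build channels, synaptic proteins and cytoskeletal parts. RBFOX proteins bind a GCAUG element, NOVA proteins bind YCAY clusters, ELAVL (Hu) and CELF proteins bind U-rich and GU-rich stretches, and PTBP proteins bind pyrimidine-rich tracts and mostly repress exons. During neuronal differentiation PTBP1 gives way to its paralogue PTBP2, and the RBFOX, NOVA, ELAVL and CELF members join it as neurons mature.

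The study asked how FOXA2, a transcription factor of the floor plate, bears on the making of human serotonin neurons from pluripotent stem cells. Serotonin neurons were differentiated from the embryonic stem cell line WA09 (H9) and sorted at day 42 for EGFP, and 1 single-cell library per genotype was made with the 10x Genomics 3′ kit, which counts each captured transcript by a unique molecular identifier (UMI). The library labelled WT carries EGFP knocked in at TPH2, the gene for the rate-limiting enzyme of serotonin synthesis in the brain. The library labelled FKO carries the same knock-in and a FOXA2 knockout, and comes from 1 knockout line. The purmorphamine dose used for the sorted cells is not given in the sources used here.

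There were 123064653 UMIs in the 11052 barcodes labelled WT and 70588747 in the 8806 labelled FKO. Filtering kept 5721 barcodes labelled WT, with 75898288 UMIs and a median of 12442 each, and 6980 labelled FKO, with 58063063 UMIs and a median of 6925.5. The libraries shared 21 barcode sequences, 5 of them among the kept barcodes. RNA quality differed between them: of barcodes with enough UMIs and genes, 39.8% labelled WT and 11.8% labelled FKO exceeded 10% mitochondrial UMIs.

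Each genotype has a single library and cells do not stand in for replicates, so no test was made. Values are given for both, and every interval is an exact 95% interval covering counting error only. FOXA2 transcripts went against the labels, at 4.11 CPM (UMIs of a gene scaled to the UMIs of its class; 3.67 to 4.59) over all kept barcodes labelled WT and 22.3 CPM (21.1 to 23.6) over those labelled FKO. Within FEV-positive neurons FOXA2 stood at 2.29 and 8.89 CPM, a log2 ratio of 1.96 (1.69 to 2.23). Among those with 0 to 5% mitochondrial UMIs that ratio was 1.10 (0.23 to 2.13), on 11 FOXA2 UMIs labelled WT. The same direction held in every class but collagen barcodes, where FOXA2 stood at 59.97 CPM (24 UMIs) labelled WT and 28.2 CPM (34 UMIs) labelled FKO. Other floor plate genes were mixed over all kept barcodes: SHH (6.14 CPM labelled WT and 3.07 CPM labelled FKO) and CORIN (3.43 and 0.913) were lower labelled FKO, FOXA1 (2.56 and 8.73) and NTN1 (5.47 and 12.5) were higher, and SPON1 hardly differed (28.8 and 28.5). A 3′ tag does not read an indel, so these counts do not check the knockout. Both libraries therefore keep their labels as names here, and any direction between them depends on those labels being right.

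Barcodes were sorted into 6 classes by genes outside the set. FEV, a transcription factor of serotonin neurons, and 3 of 6 general neuronal genes defined FEV-positive neurons, with 5161 barcodes labelled WT (median 12458 UMIs) and 5336 labelled FKO (median 7112.5 UMIs). At least 5 of 20 cell cycle genes defined cycling barcodes, with 53 labelled WT (median 22541 UMIs) and 89 labelled FKO (median 12549 UMIs). All 9 serotonergic markers had UMIs in the FEV-positive neurons of both libraries, summing to 3121 CPM labelled WT and 2808 CPM labelled FKO, but they went both ways. FEV (1694 and 1072 CPM), which also defines the class, TPH2 (211 and 183), DDC (286 and 253) and MAOB (196 and 165) were lower labelled FKO, while GATA3 (632 and 906), GATA2 (25.1 and 45.3), LMX1B (34.3 and 77.4), SLC6A4 (23.0 and 49.2) and SLC18A2 (20.3 and 56.6) were higher. Few barcodes lay at the limits of the cycling class: 2 labelled WT and 10 labelled FKO had 4 cell cycle genes, and 2 and 8 had exactly 5. At the FEV limit of 3 UMIs, 97 kept barcodes labelled WT and 439 labelled FKO had 3, and 128 and 389 had 2.

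The sequence that ties the set to neuronal differentiation is a short exon of PTBP2. In progenitors PTBP1 causes this exon to be skipped, which shifts the reading frame and sends the PTBP2 transcript to decay. It is exon 10 in each of the 4 coding transcripts that hold it, and 6 of 11 annotated transcripts hold it. The exon has 34 bases and lies at chr1:96806419-96806452 on the plus strand of GRCh38.
PTBP2 exon 10: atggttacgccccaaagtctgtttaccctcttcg
A 3′ count does not read this exon, so its inclusion was not measured here.

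Most members went the way that most genes do between the libraries, some further than the median gene, but NOVA1 hardly differed. In FEV-positive neurons the log2 ratios of FKO over WT had a median of 0.76 over the 10 members and 0.47 over the 9525 genes with at least 10 CPM in either library. Since the median gene is not at 0, each member is read below against that median as well, although genes differ widely around it (5th to 95th percentile -0.78 to 1.51). Of the 10 members, 7 lay above it, where 50% of genes do. All 10 had a ratio above 0, as did 72.1% of genes, but that of NOVA1 was 0.00 (-0.02 to 0.02) and stayed above 0 in 6 of 13 alternative settings, falling as low as -0.12. NOVA1, ELAVL4 and PTBP2 lay between 0 and the median of all genes, so their sign turns when that median is subtracted, which is a matter of scale and does not show a lower level. At least 2-fold higher in the library labelled FKO were 4 of the 10 members (RBFOX1, RBFOX3, ELAVL3 and CELF4), where 20.7% of all genes were. RBFOX1 was under 10 CPM in both libraries, and RBFOX3 reached that level only in the library labelled FKO. Of the 9 members that met the minimum set for all genes, 6 lay above the median and 3 were at least 2-fold higher, with RBFOX3 in both counts although it met the minimum only in the library where it was higher. The levels of RBFOX1 and RBFOX3 labelled WT are not clear of background, as given below.

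CELF4, which binds U-rich and GU-rich stretches of neuronal transcripts and controls their splicing and stability, showed the widest difference among the well-counted members. Its level was 269.6 CPM (265.7 to 273.5) in FEV-positive neurons labelled WT and 809.7 CPM (801.4 to 818.0) in those labelled FKO. The log2 ratio of 1.59 (1.56 to 1.61) exceeded that of the median gene by 1.12. CELF4 also took more of its own family's counts, 42.9% of the UMIs of CELF1 to CELF6 labelled WT and 55.3% of those labelled FKO. The FEV-negative neurons, which have neuronal genes but no FEV UMI, showed the same direction with 144.5 CPM labelled WT (93 UMIs) and 411.7 CPM labelled FKO (1097 UMIs).

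ELAVL2, ELAVL3 and ELAVL4 are the neuronal Hu proteins, which stabilise transcripts and act on exon choice, while ELAVL1 is found in all cells. ELAVL3 stood at 218 CPM (215 to 222) in neurons labelled WT and 494 CPM (487 to 500.2) in those labelled FKO, a log2 ratio 0.71 above the median of all genes. ELAVL2 stood at 536 and 838 CPM, and its ratio lay 0.18 above that median. ELAVL4, at 127 and 149 CPM, lay below it at -0.23. The family thus moved unevenly. Of the UMIs of all 4 genes, ELAVL3 held 23.1% labelled WT and 31.7% labelled FKO, while ELAVL4 held 13.4% and 9.58% and ELAVL2 56.8% and 53.8%. Such shares depend on how well each gene is captured, so they are compared between libraries and classes and not between genes.

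The RBFOX proteins activate or repress an exon according to the side of it they bind. RBFOX2, which is also expressed outside the nervous system, stood at 287 CPM (283 to 291) in neurons labelled WT and 519.7 CPM (513 to 526) in those labelled FKO, and its ratio lay 0.39 above the median of all genes. It made up 96.9% and 94.8% of the family's UMIs. RBFOX3, the antigen known as NeuN and a marker of mature neurons, had 589 UMIs or 8.59 CPM (7.91 to 9.31) labelled WT and 1104 UMIs or 24.2 CPM (22.8 to 25.7) labelled FKO. RBFOX1 was the scarcest member, with 47 UMIs or 0.685 CPM (0.504 to 0.911) labelled WT and 195 UMIs or 4.28 CPM (3.70 to 4.93) labelled FKO. Collagen barcodes labelled FKO, which should lack both, held RBFOX3 at 13.3 CPM (7.59 to 21.6; 16 UMIs) and RBFOX1 at 0.829 CPM (0.0210 to 4.62; 1 UMI). Those labelled WT had 0 UMIs of either, with an exact limit of 9.22 CPM, so the level of both in neurons labelled WT, and of RBFOX1 in those labelled FKO, does not stand clear of background. The RBFOX1 log2 ratio of 2.64 (2.18 to 3.13) was 0.77 (-0.33 to 2.12) among neurons with at most 5% mitochondrial UMIs, where the library labelled WT kept 240 barcodes with 7 RBFOX1 UMIs. Both scarce members were more abundant in FEV-negative neurons labelled WT, RBFOX1 at 18.6 CPM (12 UMIs) and RBFOX3 at 20.2 CPM (13 UMIs). RBFOX1 stood at 19.1 CPM in FEV-negative neurons labelled FKO, so its lower level in FEV-positive neurons was seen in both libraries, with log2 ratios of -4.77 (-5.70 to -3.72) labelled WT and -2.16 (-2.61 to -1.69) labelled FKO.

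The NOVA proteins control exons of synaptic genes. NOVA1 hardly differed between the libraries, at 631 CPM (625 to 637) labelled WT and 632 CPM (625 to 639.7) labelled FKO. Against the all-gene median its log2 ratio was -0.46, the lowest of the 10 members. NOVA2 went from 79.1 CPM (77.0 to 81.2) labelled WT to 125 CPM (122 to 129) labelled FKO, 0.20 above the median of all genes. Its share of the counts of both NOVA genes was 11.1% (10.9% to 11.4%) and 16.5% (16.1% to 16.9%). NOVA1 was also higher in FEV-negative than in FEV-positive neurons, with log2 ratios of FEV-positive over FEV-negative of -0.74 labelled WT and -0.48 labelled FKO, as was ELAVL4 at -0.46 and -0.52. The opposite held for ELAVL2, at 1.19 and 1.21, and for CELF4, at 0.90 and 0.98. Marker genes differed as well. Labelled WT and FKO, genes of other neurons summed to 143 and 210 CPM in FEV-negative neurons, beside 23.5 and 22.2 CPM in FEV-positive ones. Progenitor genes summed to 1496 and 1872 CPM beside 664 and 707, and floor plate genes to 93.2 and 191 beside 10.4 and 31.1. The 6 neuronal genes summed lower, to 6822 and 10136 CPM beside 10223 and 15207. The part of these cells in the ratios was not tested.

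PTBP2, which represses exons until late steps of neuronal maturation, stood at 125 CPM (123 to 128) in neurons labelled WT and 159 CPM (156 to 163) in those labelled FKO, with a log2 ratio of -0.12 relative to the median of all genes. That side is the least settled of the 10: PTBP2 stood above the median of all genes in 2 of 13 alternative settings, whereas each other member kept its side in all 13. Its paralogue PTBP1, the repressor found in progenitors and most other tissues, stood at 11.4 and 16.2 CPM. PTBP2 therefore held 91.7% (91.1% to 92.2%) of the counts of the pair in neurons labelled WT and 90.8% (90.1% to 91.4%) in those labelled FKO. In cycling barcodes its share was 37.2% (28.6% to 46.4%) and 52.7% (45.9% to 59.4%), and PTBP1 itself was at 66.4 CPM (76 UMIs) and 72.4 CPM (105 UMIs). The order of the libraries in cycling barcodes turned with FEV: the share was 52.8% (35.5% to 69.6%) labelled WT and 30.3% (21.5% to 40.4%) labelled FKO with at most 2 FEV UMIs, and 30.6% (21.0% to 41.5%) and 70.7% (61.9% to 78.6%) with more. Each of these shares lay below those of neurons.

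Most members were higher in FEV-positive neurons than in cycling barcodes. In the library labelled WT 8 of the 10 were at least 2-fold higher. Of the 8 members that met the minimum of 10 CPM, 7 were, where 19.5% of 9379 genes under the same minimum were, and the median log2 ratio was 1.90 over the members and 0.16 over all genes. ELAVL4 stood at 127 CPM in these neurons and 11.4 CPM (13 UMIs) in cycling barcodes, a log2 ratio of 3.48 (2.70 to 4.39). CELF4 followed at 3.14 (2.66 to 3.66), ELAVL2 at 2.72 (2.43 to 3.03) and RBFOX2 at 2.13 (1.81 to 2.48). PTBP2 (1.67), ELAVL3 (1.61) and NOVA2 (1.41) were also at least 2-fold higher. RBFOX3 had only 1 UMI in cycling barcodes labelled WT, and its ratio of 3.30 has an interval from 0.81 to 8.60. RBFOX1 also had 1 UMI there, so its ratio of -0.35 (-2.90 to 4.98) shows no direction.

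NOVA1 was the exception among the well-counted members. Its level in cycling barcodes labelled WT was 509 CPM, 80.7% (74.3% to 87.6%) of that in neurons, whereas FEV was at 12.3% and the neuronal gene STMN2 at 9.62% of their neuronal levels in the same barcodes. In the library labelled FKO the corresponding shares were 69.1% for NOVA1, 41.1% for FEV and 41.6% for STMN2. NOVA1 UMIs in cycling barcodes labelled WT were thus out of proportion to those of the neuronal markers.

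In the library labelled FKO, 5 of the 10 members were at least 2-fold higher in neurons than in cycling barcodes, where 7.21% of 10724 genes were, with a median log2 ratio of 0.996 over the members and 0.03 over all genes. These were RBFOX3 (1.23), ELAVL2 (1.17), CELF4 (1.07), ELAVL4 (1.03) and RBFOX2 (1.01), with PTBP2 (0.98) just under, then NOVA2 (0.81) and ELAVL3 (0.66). This count depends on which cycling barcodes are taken. Of the 89, 31 had more than 2 FEV UMIs, and these held STMN2 at 4186 CPM, while the 58 with at most 2 FEV UMIs held it at 278 CPM. Of the 53 labelled WT, 37 (69.8%) had more than 2 FEV UMIs, and these held STMN2 at only 487 CPM and CELF4 at 32.7 CPM (29 UMIs), so the FEV rule does not set apart the same kind of barcodes in both libraries. Against those 58 alone, 9 members were at least 2-fold higher in neurons, and the median log2 ratio was 2.56, beside 0.05 over all genes. The same rule left 16 cycling barcodes labelled WT, with 6 members and a median of 1.67, beside 0.03 over all genes. For these ratios RBFOX1, RBFOX3 and ELAVL4 had 0 UMIs in the 16 and stood at the floor of 3 counts. The order of the libraries by these medians thus turned with this rule. Shares of all genes at that fold are given only against all cycling barcodes, so neither count can be set against one. CELF4 stood at 35.7 CPM (22 UMIs) in the 58 and 642 CPM (536 UMIs) in the 31. NOVA1 stood at 216 CPM (133 UMIs) and 599.9 CPM (501 UMIs), so in this library it too was lower in the cycling barcodes without much FEV. Those 16 barcodes labelled WT held NOVA1 at 545 CPM (140 UMIs). Other settings moved the FKO count between 0 and 9, and the RBFOX1 ratio in this library was -1.27 (-2.03 to -0.41), with 15 UMIs in cycling barcodes.

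Between the libraries, the difference within cycling barcodes depended on FEV. Over all of them the members' median log2 ratio, FKO over WT, was 2.16, beside 0.56 for all genes, and CELF4 stood at 30.6 and 385 CPM. With more than 2 FEV UMIs the medians were 2.72 and 0.59, but with at most 2 they were 0.19 over the 8 members that had a ratio and 0.32 over all genes, with ELAVL4 (0 UMIs labelled WT) at the floor of 3 counts. Among those 8 members the highest ratio was that of RBFOX2, at 0.76 (-0.10 to 1.72). CELF4 was at 23.3 CPM (6 UMIs) labelled WT and 35.7 CPM labelled FKO, and NOVA1 was lower labelled FKO at -1.33 (-1.69 to -0.98), against 0.27 (0.08 to 0.45) with more FEV. The intervals of the other members with at most 2 FEV UMIs held 0. Over all cycling barcodes the neuronal genes differed too: all 6 had UMIs in both libraries, they summed to 1278 CPM labelled WT and 6650 CPM labelled FKO, and STMN2 was the most abundant in both. The 6 collagen cell genes summed to 317 CPM labelled WT, led by COL3A1 and with POSTN at 0, and to 1067 CPM labelled FKO, led by COL1A2 with none at 0. The 8 progenitor genes, all with UMIs, summed to 7313 and 4522 CPM, led by VIM, and the 7 floor plate genes to 333 and 369 CPM, led by SPON1, with FOXA2 higher labelled FKO (23.6 and 88.2 CPM) but SHH lower (39.3 and 17.9 CPM). Glial genes summed to 8.73 CPM labelled WT (3 of 6 with UMIs, led by MBP, with OLIG1, OLIG2 and GFAP at 0) and 61.3 CPM labelled FKO (5 of 6, led by OLIG1, with GFAP at 0). Genes of other neurons summed to 3.49 CPM labelled WT (3 of 10, led by TH) and 28.9 CPM labelled FKO (8 of 10, led by LHX1, with SLC32A1 and SLC18A3 at 0). Microglial and endothelial genes summed to 2.62 and 2.07 CPM (2 of 4 in both, with CX3CR1 and PECAM1 at 0). The part of these cells in the difference was not tested.

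Genes of other cell types were also read in the FEV-positive neurons themselves. All 7 floor plate genes had UMIs there and summed to 10.4 CPM labelled WT and 31.1 CPM labelled FKO, led by SPON1. The 6 collagen cell genes summed to 7.82 and 12.1 CPM, led by COL3A1 (4.11 and 2.41 CPM) labelled WT and COL1A2 (0.802 and 3.51 CPM) labelled FKO. The 8 progenitor genes, led by VIM, summed to 664 and 707 CPM, a sum that hides opposite directions: VIM stood at 426 CPM labelled WT and 559 CPM labelled FKO, but SOX2 at 98.3 and 63.4, FABP7 at 78.1 and 47.3 and NES at 58.1 and 32.1 CPM. All 20 cell cycle genes summed to 14.2 CPM labelled WT, led by CCNB1, and 19 of them to 18.4 CPM labelled FKO, led by TPX2 and with NUSAP1 at 0. The 10 genes of other neurons summed to 23.5 and 22.2 CPM, led by TH, and here too single genes went both ways, TH from 16.7 CPM labelled WT to 7.86 CPM labelled FKO but LHX1 from 0.569 to 5.91 and SLC17A6 from 0.642 to 3.51 CPM. The 6 glial genes summed to 20.01 and 28.9 CPM, led by MBP, and the 4 microglial and endothelial genes to 0.481 and 0.483 CPM, led by CLDN5. Every gene of these lists but NUSAP1 had a UMI in both libraries, and the part of these cells in the members' ratios was not tested.

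Detection was compared after each barcode was thinned to 2000 UMIs, which left out 4 FEV-positive neurons labelled WT and 5 labelled FKO. Collagen barcodes, 18 labelled WT (median 18228.5 UMIs) and 103 labelled FKO (median 8881 UMIs), served as a class that should lack neuronal genes, although 33.3% and 56.3% of them had a STMN2 UMI after thinning. This class is not alike in the libraries. Labelled WT its 6 collagen cell genes summed to 2524 CPM and its 7 floor plate genes to 1857 CPM, with SHH in 16 of 18 barcodes and COL1A1 in 4, while labelled FKO the sums were 9654 and 130 CPM. Backgrounds are therefore read within each library only. CELF4 was found in 39.5% (38.2% to 40.9%) of thinned neurons labelled WT, against 74.4% (73.2% to 75.6%) labelled FKO, and in 88.7% and 96.2% before thinning. In thinned collagen barcodes CELF4 was found in 0 of 18 labelled WT, which allows a share of up to 16.7% by the floor of 3 counts (exact limit 18.5%), and in 25.2% of those labelled FKO. Its detection in thinned neurons was thus above that in collagen barcodes in each library, and higher labelled FKO, as its level was. At a fixed depth detection follows the level, so this is not read as a change in its spread over neurons.

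NOVA1 was found in 67.4% of thinned neurons labelled WT and 67.6% of those labelled FKO, beside 44.4% and 24.3% of thinned collagen barcodes, and in 99.4% and 96.2% of neurons before thinning. The interval of the collagen share labelled WT (21.5% to 69.2%) holds the share in neurons, so the 2 do not separate there. ELAVL3 was found in 34.8% and 60.0% of thinned neurons (88.8% and 93.9% before) and in 5.56% and 15.5% of thinned collagen barcodes. PTBP2, at 21.9% and 28.7% of thinned neurons (75.5% and 69.8% before), was found in 16.7% and 9.71% of thinned collagen barcodes, so its share labelled WT does not stand clear of that background. For RBFOX2 the thinned shares were 44.5% and 64.4% of neurons beside 33.3% and 21.4% of collagen barcodes, for ELAVL2 61.4% and 78.2% beside 0 of 18 (exact limit 18.5%) and 20.4%, for ELAVL4 23.0% and 25.7% beside 0 of 18 (exact limit 18.5%) and 3.88%, and for NOVA2 14.4% and 23.3% beside 5.56% and 2.91%. Before thinning these 4 were found in 94.9%, 96.7%, 75.7% and 62.6% of neurons labelled WT and 95.4%, 97.7%, 63.9% and 60.5% of those labelled FKO. The shares of RBFOX2 and NOVA2 labelled WT lie within their collagen intervals (13.3% to 59.0% and 0.141% to 27.3%). RBFOX2 is also expressed outside the nervous system, so its share in collagen barcodes may not be background alone. Labelled WT, where 18 collagen barcodes give wide limits, CELF4, ELAVL2, ELAVL3 and ELAVL4 thus stood clear of background, and labelled FKO all members but RBFOX1 and RBFOX3 did. RBFOX1 was found in 0.116% and 0.807% of thinned neurons (0.717% and 2.89% before), and RBFOX3 in 1.53% and 4.46% (9.63% and 16.9% before). In thinned collagen barcodes labelled FKO these shares were 0.971% and 4.85%, so the detection of RBFOX1 and RBFOX3 in thinned neurons labelled FKO is at background and is not read as expression. For RBFOX3 the pooled level differed from this, at 24.2 CPM (22.8 to 25.7) in neurons labelled FKO beside 13.3 CPM (7.59 to 21.6; 16 UMIs) in collagen barcodes. Both were found in 0 of 18 collagen barcodes labelled WT, with an exact limit of 18.5%, so neither share in neurons labelled WT stands clear of that background.

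**Figure D1:**
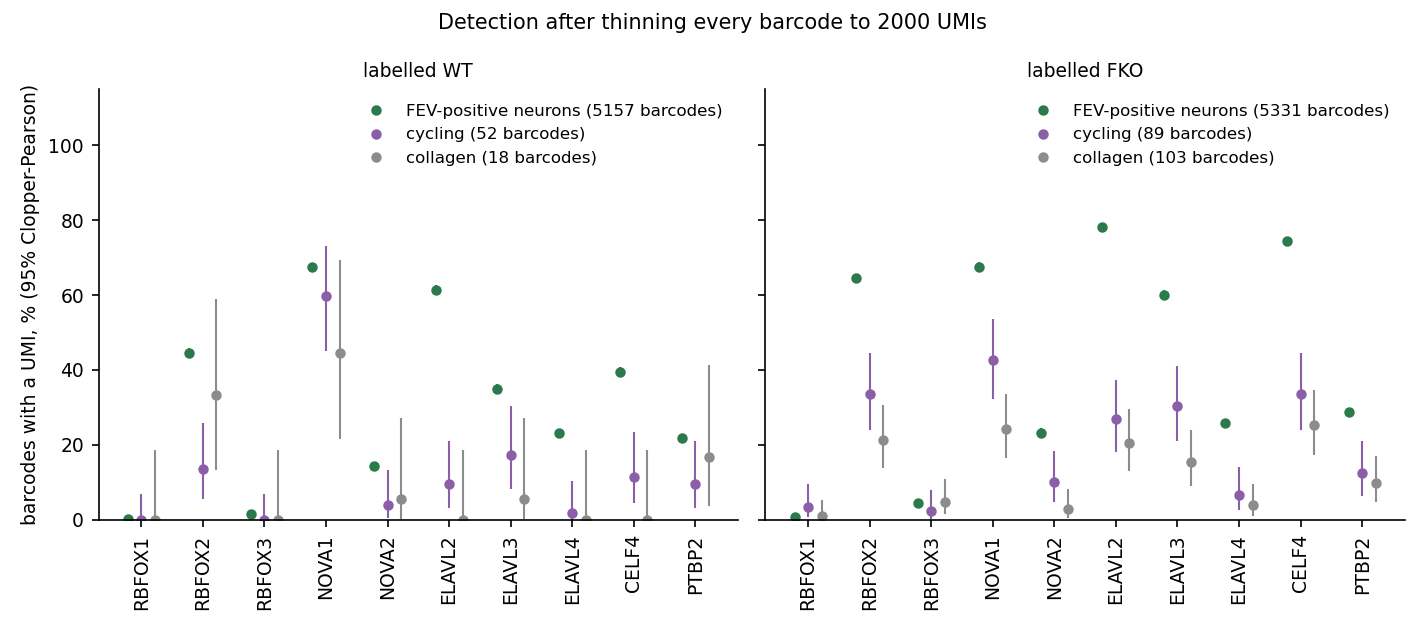
Percent of barcodes with a UMI of each member after thinning to 2000 UMIs, with exact 95% Clopper-Pearson intervals, in FEV-positive neurons (green), cycling barcodes (purple) and collagen barcodes (grey), by library. CELF4 goes from 39.5% of neurons labelled WT to 74.4% labelled FKO, while NOVA1 stays at 67.4% and 67.6%.

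Counted together, a thinned neuron labelled WT held a median of 3 of the 10 members and one labelled FKO a median of 4. Thinned cycling barcodes held a median of 1 in both libraries. No member at all was found in 1.90% (1.55% to 2.31%) of thinned neurons with the label WT and 0.169% (0.0772% to 0.320%) with the label FKO, against 21.2% (11.1% to 34.7%) and 24.7% (16.2% to 35.0%) of cycling barcodes. The classes overlapped, with quartiles of 2 to 4 members in neurons labelled WT and 1 to 2 in cycling barcodes, and of 3 to 5 and 1 to 3 labelled FKO.

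Gene length moved with the difference between the libraries. Median log2 ratios of FKO over WT in FEV-positive neurons were -0.20 for genes under 10 kb, 0.25 from 10 to 30 kb, 0.58 from 30 to 100 kb, 0.83 from 100 to 300 kb and 1.02 above 300 kb. The members are long, with a median of 155 kb beside 36.3 kb for the genes compared. Set against genes of their own length class, 6 of the 10 stood above the median, where by definition 50% of genes do. These were ELAVL3 by 0.93, CELF4 by 0.57, NOVA2 by 0.08, RBFOX2 by only 0.02, and the scarce RBFOX1 by 1.63 and RBFOX3 by 0.48. The levels of both scarce members labelled WT are not clear of background. Among neurons with at most 5% mitochondrial UMIs the RBFOX1 ratio itself was 0.77 (-0.33 to 2.12). ELAVL2 changed side, at -0.19, and NOVA1 (-0.83), ELAVL4 (-0.60) and PTBP2 (-0.48) lay further below. The part of gene length in these ratios was not tested.

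Mitochondrial share, a sign of RNA quality, also differed, with a median of 7.89% in neurons labelled WT and 5.23% in those labelled FKO. Among neurons with 5 to 10% mitochondrial UMIs in both libraries, the members' median log2 ratio was 0.73 and that of all genes 0.42. Between 0 and 5% the medians were 0.85 and 0.46, with 7 members above the all-gene median in each of these ranges. Between 10 and 20%, outside the kept barcodes, they were 0.65 and 0.44. The part of RNA quality in these ratios was not tested.

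Taken as lists, other genes of the splicing machinery had lower median ratios than the members. The lists were not matched to the members in gene length, with which these ratios moved. In FEV-positive neurons 33 other splicing regulators were read, FKO over WT. Those that had a ratio, scarce genes included, had a median log2 ratio of 0.49. Of the 33, 16 lay above the all-gene median, where 50% of genes do, and 5 were at least 2-fold higher, where 20.7% were. Among the 25 of them with at least 10 CPM in either library, highest were SRRM3 (1.29), a neuronal activator of microexons, PTBP3 (1.25) and CELF1 (1.05). Under that limit MBNL3 was 10.5-fold higher labelled FKO (2.42-fold to 95.5-fold), more than SRRM3 was, on 2 UMIs labelled WT and 14 labelled FKO. Lowest were RALY (-0.50), HNRNPA1 (-0.27) and HNRNPA2B1 (-0.20). The 12 SR proteins, general activators of exons, had a median of 0.15, with 2 above the median of all genes, SRSF1 at 0.67 and SRSF4 at 0.62. SRSF9 (-0.58), SRSF3 (-0.51) and SRSF2 (-0.42) were lowest, and SRSF6 (0.39) came after SRSF4. The core spliceosome list of 23 genes had a median of -0.03, with 1 above the median of all genes, SNRNP200 at 0.56, followed by SNRNP70 (0.47) and SF3B2 (0.44). Its lowest were SNRPF (-1.19), SNRPG (-1.07) and SNRPD2 (-1.06), which encode proteins of the small ribonucleoprotein rings.

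Neurons over cycling barcodes were read for the same lists, again naming genes with at least 10 CPM in either class. SRRM3, SRRM4 and CELF3 were highest among the other regulators for the label WT, at 3.10, 3.08 and 2.81, and for the label FKO, at 0.95, 1.60 and 1.03. SRRM4 is the neuronal activator of microexons that also promotes inclusion of the PTBP2 exon printed above. QKI, a regulator of progenitors and glia, was the lowest of these in both, at -3.28 labelled WT and -2.45 labelled FKO, followed by PTBP1 at -2.55 and -2.16. RBM38 came next labelled WT (-1.61) and RALY labelled FKO (-0.76). Under that limit some scarce genes were lower: MBNL3 at -6.90 (-10.37 to -4.10) and -4.16 (-5.52 to -2.70), RBM20 at -4.32 (-6.04 to -2.23) and -2.65 (-4.88 to 0.58), and RBM47 labelled FKO at -5.71 (-8.40 to -3.35), each on at most 8 UMIs in cycling barcodes. The SR proteins had medians of -0.35 and -0.44, running from SRSF2 (-0.87 and -0.70) to TRA2A (0.49 and 0.27). Medians of the core spliceosome were -0.38 and -0.47, running from SNRPB (-1.49 and -1.24) to SNRPB2 (0.93 and 0.35).

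The genes whose levels most resembled the mean profile of the members over 5 classes in both libraries were NCOA7, ANKRD46, WASF1, SH3BP5 and TMEM169, with Pearson r between 0.989 and 0.994 over 10 groups of barcodes among 5138 genes. These groups share libraries and depth, so r is a description. WASF1, an actin regulator of neuronal processes, stood at 69.5 CPM in FEV-positive neurons labelled WT and 127 CPM labelled FKO, and at 20.1 and 68.9 CPM in cycling barcodes. Members differed in how close they came to their own mean profile, from 0.985 for NOVA2 and 0.983 for RBFOX3 down to 0.75 for RBFOX1 and 0.66 for NOVA1.

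Promoter sequences are shown for the 3 members with a single promoter in the RefSeq table used, since CELF4 and NOVA2 lay above the median of all genes between the libraries and PTBP2 below it. Promoters of 8 of the 10 members were in that table (GRCh38.p14), 36 in all, each running from 250 bases before to 50 bases after a start. RBFOX2 and ELAVL3 have no entry there. The CELF4 window lies inside the annotated gene, which begins at chr18:37566037 on the minus strand, so it shows an internal start. The PTBP2 window also lies inside its annotated gene, which begins at chr1:96721665. Capitals mark matches on either strand to 4 short motifs. CCGGAA is the core bound by ETS factors such as FEV, AGATAA is the site of GATA factors, and CAGCTG is an E-box bound by proneural factors, as is CAGATG.
CELF4, chr18:37485743-37486042, minus strand: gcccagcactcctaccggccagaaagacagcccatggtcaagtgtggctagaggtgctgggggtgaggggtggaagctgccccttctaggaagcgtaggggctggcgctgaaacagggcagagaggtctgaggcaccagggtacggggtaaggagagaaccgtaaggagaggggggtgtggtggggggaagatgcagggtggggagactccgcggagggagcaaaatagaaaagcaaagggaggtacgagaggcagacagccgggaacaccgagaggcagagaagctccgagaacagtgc
NOVA2, chr19:45973816-45974115, minus strand: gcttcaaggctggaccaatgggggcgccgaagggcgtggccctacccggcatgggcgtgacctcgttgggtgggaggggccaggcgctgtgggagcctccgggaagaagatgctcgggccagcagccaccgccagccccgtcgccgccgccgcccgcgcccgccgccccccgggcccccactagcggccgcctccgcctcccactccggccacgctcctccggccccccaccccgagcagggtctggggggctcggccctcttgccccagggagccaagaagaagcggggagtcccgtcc
PTBP2, chr1:96722388-96722687, plus strand: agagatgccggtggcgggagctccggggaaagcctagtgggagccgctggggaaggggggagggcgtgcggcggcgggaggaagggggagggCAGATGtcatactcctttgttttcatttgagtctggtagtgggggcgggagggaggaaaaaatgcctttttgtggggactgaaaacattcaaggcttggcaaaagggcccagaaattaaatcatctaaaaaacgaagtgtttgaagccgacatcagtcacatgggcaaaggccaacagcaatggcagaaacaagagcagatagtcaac
The PTBP2 promoter held 1 CAGATG, and the other printed promoters held none of the 4 motifs. Of all 35116 promoters in the table, 17.2% held CCGGAA, 10.3% held AGATAA, 17.9% held CAGCTG and 14.7% held CAGATG. Of the 36 promoters of members 2, 5, 8 and 9 did. These matches are descriptions of the letters in each window.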

How the data were processed

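The deposited values are raw UMI counts, not normalized, from 1 library per genotype. The authors made them with Cell Ranger (7.1.0 per the file headers, 7.0 on GRCh38 per the submitters' processing notes), and whether introns were counted is not given in the sources used here.

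Kept barcodes had at least 1000 UMIs, 500 genes and at most 10% mitochondrial UMIs. Doublets were scored per library by Scrublet (scanpy 1.11.5), and the top scores, 0.8% per 1000 barcodes, were removed, which marked 977 and 620 barcodes. Classes came from fixed marker genes without clustering. Counts were summed per class and library and scaled to the class total (CPM). Ratios took no pseudocount, and a count of 0 stood at 3 counts. Intervals were exact Poisson, Clopper-Pearson or conditional binomial (scipy 1.17.1). No test was made, since each condition has 1 library. Procedures were tested on simulated data.

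The genes named are the members, PTBP1, label checks, the 3 highest and 3 lowest of each list, and the 5 genes most like the members. The rule set ahead had no CPM limit for the list ends; a limit of 10 CPM was applied, and genes it left out are named as such. Members and lists were chosen with earlier results of these data known. Values of cycling barcodes with over 2 FEV UMIs, ratios by mitochondrial share, library ratios and PTBP2 shares by FEV, counts of members above 10 CPM, marker genes of other classes and serotonergic genes by name, and 3 alternatives were added after results were seen. Gene lengths and the exon came from GENCODE release 29. Alternatives changed the mitochondrial limit, doublets, UMI and FEV minimums, the cycling rule, depth, scaling and pooling. Bulk RNA-seq was not analysed here.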

Additional observations from a re-analysis of the deposited data

Results flagged for a closer look

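These results went in opposite directions in 2 groups under the same contrast, and none of the differences was tested. RBFOX3 had a log2 ratio of FEV-positive over FEV-negative neurons of 0.43 in the library labelled FKO and -1.23 in the library labelled WT, where the FEV-negative neurons held 13 RBFOX3 UMIs. NOVA1 had a log2 ratio of FKO over WT of 0.73 in barcodes with floor plate genes, beside -0.25 in FEV-negative neurons, -0.22 in cycling barcodes and -0.33 in the remaining barcodes. The class with floor plate genes is not alike in the libraries, as given below. Within FEV-positive neurons, barcodes in the top tercile of FEV share were set over those in the bottom tercile. ELAVL2 gave 0.14 labelled FKO and -0.25 labelled WT, CELF4 gave 0.10 and -0.077, and PTBP2 gave 0.13 and -0.31, while the medians of all genes were -0.03 and -0.13.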

How the results depend on the processing

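The summary values over the members were recomputed under 11 other settings chosen ahead and 3 chosen after seeing the data. Of 79 values 64 held, 15 moved and 0 reversed. This tally is partly fixed ahead. Counts of members could only hold or move, not reverse. Settings that changed only the cycling rule left FKO over WT in neurons as it was, which counts as held. Of 389 single member ratios, 273 held, 110 moved and 6 reversed, where a change of sign counts only if the interval of the first value left out 0. This leaves out NOVA1 for FKO over WT, which was above 0 in 6 of 13 settings, and RBFOX1 in neurons over cycling barcodes labelled WT, which kept its sign in 11 of 12. For FKO over WT the members' median (0.76) was 0.85 with a mitochondrial limit of 5%, which left 240 neurons and 9 cycling barcodes labelled WT, 0.64 when scaled without mitochondrial and ribosomal protein genes, which lowered the median of all genes as well (0.35), and 0.84 with barcodes thinned to 2000 UMIs under unchanged class limits. The median ratio of neurons over cycling barcodes labelled FKO (0.996) was 0.54 with the 5% limit, 2.56 with at most 2 FEV UMIs in cycling barcodes (1.67 labelled WT, from 1.90), 1.45 with per-barcode means, 1.64 with 5 to 10% mitochondrial UMIs only, and 1.46 thinned under unchanged limits. The count of members at least 2-fold higher there (5) was 0, 9, 8 and 9 under the first 4 of these, 2 with doublets kept, 3 with at least 10 cycling genes and 2 under the other scaling. The share of all genes at that fold is given for the first setting only (7.21%). Under the settings of these counts the median of all genes ran from -0.07 (other scaling) to 0.05 (5% limit). RBFOX3 in neurons over cycling barcodes labelled WT (3.30) became -0.97 with the 5% limit, -0.44 with at most 2 FEV UMIs, -1.94 thinned under lowered limits and -2.44 thinned under unchanged limits. In all 4 the cycling barcodes held 0 RBFOX3 UMIs, so these values are bounds set by the floor of 3 counts. Thinned under unchanged limits, RBFOX3 labelled FKO became -0.20 on 2 cycling UMIs and NOVA1 labelled WT -0.16, while the median of all genes labelled WT was -0.52 there. Apart from RBFOX3 by this construction, the cause was not tested. When thinned before classes were set, the limits were lowered to 1 FEV UMI, 2 neuronal genes and 2 cycling genes, and neurons had 0 cycling genes. Members above the median of all genes were 7 or 8 in 13 of these settings, and 6 lay above the median of genes of the same length class. By definition 50% of genes lie above either median.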

Other observations

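Barcodes with floor plate genes, 62 labelled WT and 60 labelled FKO, held fewer members than neurons did after thinning, with a median of 1 labelled WT and 2 labelled FKO. RBFOX1 and RBFOX3 had 0 UMIs in this class in the library labelled WT. ELAVL1 made up 31.8% (25.4% to 38.8%) of the UMIs of the 4 ELAVL genes in those labelled WT and 7.47% (5.58% to 9.76%) in those labelled FKO, beside 6.60% and 4.85% in FEV-positive neurons. PTBP2 held 71.9% (58.5% to 83.0%) and 68.0% (58.0% to 76.8%) of the counts of the PTBP pair in them, between its shares in neurons and in cycling barcodes. This class, set by at least 2 of SHH, CORIN and FOXA2, is not alike in the libraries. Labelled WT and FKO, SHH was found in 96.8% and 90% of its barcodes, CORIN in 75.8% and 26.7%, and FOXA2 in 59.7% and 100%. STMN2 moved with the library in this class too, at 619 CPM labelled WT and 2417 CPM labelled FKO. The part of these differences in the shares was not tested.

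Genes that overlap a member were scarce in FEV-positive neurons. The most abundant antisense one was Z82217.1 at RBFOX2, with 281 UMIs labelled WT and 459 labelled FKO, beside 19713 and 23673 for RBFOX2 itself.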
